A study of Mus musculus with 40 samples.

Results

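The genes described here are 9 transcripts of T cells and cytotoxic lymphocytes, followed through rib repair in skeletally immature and mature mice. They were chosen by name and matched by gene symbol: Cd3d and Cd3e, Cd4 and Cd8a, Gzma, Gzmb and Prf1, Nkg7, and Klrk1. All 9 of the 9 were among the 21204 genes of the authors' filtered count table. All 9 were low in this tissue, with medians over the libraries from 0.598 CPM (reads scaled to library size with TMM factors) for Gzmb to 10.6 CPM for Cd4. Cd3d and Cd4 were lowest at 2 days post-resection (2dpr) at both ages, Cd4 then rose at both ages, Nkg7 was highest at baseline, and no member passed the test between immature and mature mice at any stage. Gzma came closest, with a mean of 3.94 CPM in immature mice and 0.411 CPM in mature mice at 14dpr.

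Bulk RNA sequencing was made from composite rib tissue of wild-type mice, aged 7 weeks in the immature groups and over 10 months in the mature groups. No treatment other than surgery was given. Tissue was taken at baseline, on the day of rib resection (0dpr), and at 2, 5 and 14dpr, with 4 libraries in each of 9 groups and 3 in the mature 5dpr group, whose replicate 2 was not analysed here. The labels describe baseline tissue as bone, marrow and intercostal muscle collected after resection, whereas the study's text treats baseline as the state before injury. The labels do not say whether replicates came from separate animals, so p-values measure the spread between these samples only. Whole callus RNA mixes many cell types, and fewer cells of a type cannot be told apart from less RNA per cell.

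A T cell reads antigen through a variable receptor that signals through the invariant CD3 chains, and the coreceptors CD4 and CD8 direct it to different classes of antigen-presenting molecule. Cytotoxic T cells and natural killer (NK) cells kill by releasing perforin, which makes pores, together with granzymes, which are serine proteases that act inside the target cell. In injured bone, T cells are known to release signals that act on bone-forming and bone-resorbing cells. In the mouse, Cd4 and Cd8a are also expressed by subsets of dendritic cells, so neither is exclusive to T cells.

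On GRCm38 with the GENCODE vM21 annotation, Cd3d (chr9:44981786-44987339, plus strand) and Cd3e (chr9:44998740-45009627, minus strand) lie next to each other. Cd4 lies at chr6:124864692-124888221 on the minus strand and Cd8a at chr6:71373427-71379173 on the plus strand. The bases just before the annotated start of the 5 cytotoxic members are shown because all of them hold the 6-letter core that Runx factors bind, TGTGGT, on either strand. Sequences are from RefSeq on GRCm38.p6, 5′ to 3′ on the strand of the gene, 150 bases ending at the base before the start, with the core or its reverse complement in capitals.
Gzma (chr13:113100982-113101131, minus strand): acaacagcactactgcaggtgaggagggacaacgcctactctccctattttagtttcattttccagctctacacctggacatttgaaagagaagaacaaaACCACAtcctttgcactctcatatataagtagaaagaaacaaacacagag
Gzmb (chr14:56262335-56262484, minus strand): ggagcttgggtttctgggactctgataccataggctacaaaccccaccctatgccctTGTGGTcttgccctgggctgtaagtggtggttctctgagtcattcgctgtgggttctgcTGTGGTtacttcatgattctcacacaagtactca
Prf1 (chr10:61297686-61297835, plus strand): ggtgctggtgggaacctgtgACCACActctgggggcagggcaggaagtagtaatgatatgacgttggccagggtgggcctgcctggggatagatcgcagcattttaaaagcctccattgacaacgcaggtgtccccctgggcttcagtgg
Nkg7 (chr7:43436988-43437137, plus strand): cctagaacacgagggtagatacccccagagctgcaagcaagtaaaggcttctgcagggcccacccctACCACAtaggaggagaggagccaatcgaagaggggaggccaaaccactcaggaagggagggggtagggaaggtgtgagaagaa
Klrk1 (chr6:129623865-129624014, minus strand): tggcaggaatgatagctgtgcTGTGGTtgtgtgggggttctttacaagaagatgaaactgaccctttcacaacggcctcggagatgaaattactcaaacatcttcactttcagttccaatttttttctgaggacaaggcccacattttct

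Of the 8 members with a promoter entry, 5 held the core within 250 bases before the start on either strand, and the Cd3d, Cd3e and Cd8a windows did not. Among all 32851 promoters of the same table, 14.0% held it within the same distance. The motif was chosen after the sequences had been viewed, so this is a description of letters and not a test, and binding was not measured. In the sequences above, the match in Gzma began 50 bases before the start and those in Gzmb 93 and 34 bases before it.

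Libraries held 6057756 to 21537070 counts (median 9087417), so a member near 1 CPM rested on about 6 to 22 reads and had a large counting error. A pair of 2dpr libraries stood apart. Mature 2dpr replicate 3 had reads for 14214 genes against 19068 to 20823 in the other 38 libraries, and 1927 genes with at least 10 reads in each of the other 3 libraries of its group were at 0 in it. It held no read of Cd3d, Cd3e, Gzma, Gzmb or Prf1, although it held 30 reads of Cd4 and 26 of Cd8a. Immature 2dpr replicate 1 had 3.98 CPM of Cd3e where the other 3 libraries of its group had 0.0838 to 0.465 CPM. Calls at 2dpr against 0dpr are therefore given with and without these 2 libraries, a choice made after seeing the data.

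The members differed in how often they were close to zero. Gzmb had 3 reads or fewer in 11 of 39 libraries, Prf1 in 8, Cd3d and Cd3e in 7 each, Gzma in 6 and Cd8a in 3. Cd4, Nkg7 and Klrk1 had more than 3 reads in every library. Their lowest values were 13, 7 and 15 reads. The mean of the group was under 1 CPM in 6 of the 10 groups for Gzmb and Prf1, in 4 for Cd3d, in 3 for Cd3e and Gzma, and in 1 for Cd8a. On a per-length scale, the mean level over all libraries was 9.15 CPM per kilobase of exon for Nkg7, a membrane protein of cytotoxic granules, and 2.95 for Cd4. It was 1.94 for Gzma, and the other 6 members were between 0.312 (Cd3e) and 0.868 (Cd3d).

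**Figure D1:**
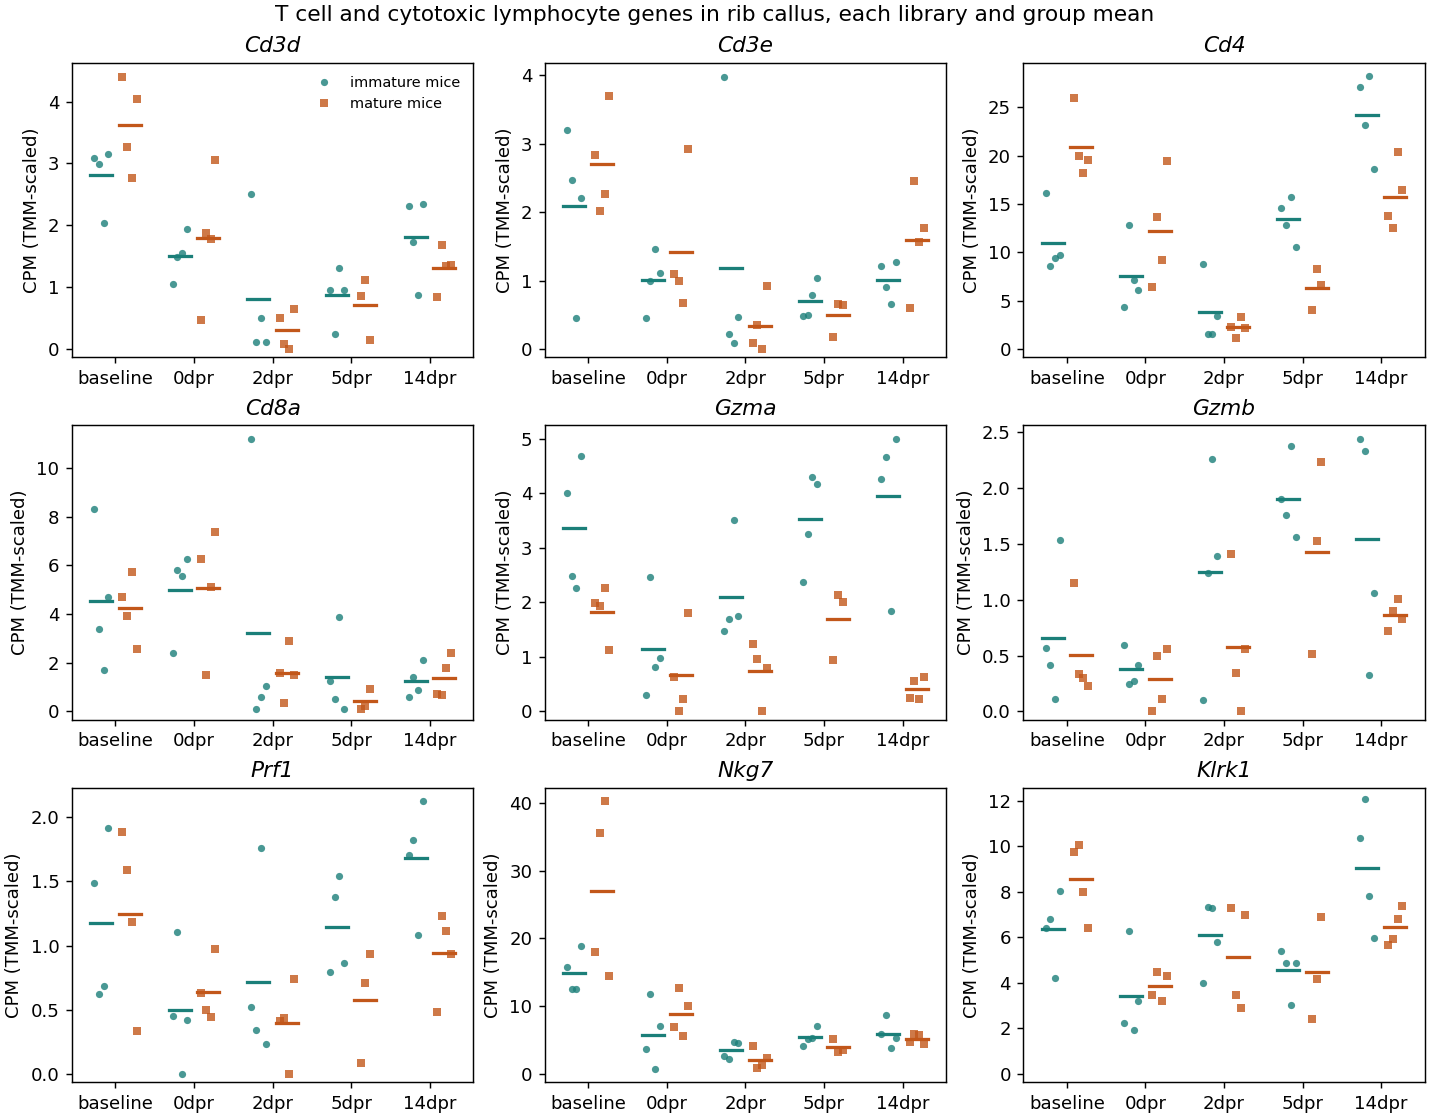
CPM of each of the 9 genes (vertical axis, scaled by the authors with TMM factors, each panel with its own range) at the 5 stages (horizontal axis). Circles are immature and squares mature libraries, and bars are group means. Immature 2dpr replicate 1 is the high circle at 2dpr for Cd3e (3.98 CPM) and Cd8a (11.2 CPM), and the 4 mature 14dpr squares for Gzma (0.223 to 0.623 CPM) lie below the 4 immature circles (1.84 to 4.99 CPM).

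The CD3 chains, which carry the signal of the T cell receptor, were low at 2dpr in all but 1 library. Cd3d measured 3.08, 2.99, 2.04 and 3.16 CPM in the immature baseline libraries and 4.4, 3.27, 2.76 and 4.04 CPM in the mature ones. At 0dpr it was 1.05, 1.48, 1.55 and 1.95 CPM in immature mice and 0.471, 1.87, 1.77 and 3.06 CPM in mature mice. The immature baseline and 0dpr values did not overlap, whereas the mature ones did through the single high library at 0dpr. At 2dpr Cd3d was 2.51, 0.113, 0.503 and 0.116 CPM in immature mice and 0.496, 0.0866, 0 and 0.648 CPM in mature mice, and apart from the first immature library none reached 1 CPM. By 14dpr the group means were 1.81 ± 0.690 CPM (SD, n = 4) for the immature and 1.30 ± 0.343 CPM (SD, n = 4) for the mature group.

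Cd3e had a similar course in mature mice. Its baseline values were 3.20, 2.47, 0.454 and 2.20 CPM in immature mice and 2.83, 2.01, 2.27 and 3.70 CPM in mature mice. In the 2dpr libraries it measured 3.98, 0.225, 0.0838 and 0.465 CPM (immature) and 0.0826, 0.346, 0 and 0.925 CPM (mature). The mean was lowest in the mature 2dpr group, at 0.339 ± 0.418 CPM (SD, n = 4), and highest in the mature baseline group, at 2.70 ± 0.749 CPM (SD, n = 4). In immature mice the lowest mean was instead at 5dpr, at 0.703 ± 0.268 CPM (SD, n = 4), where the 2dpr mean was 1.19 ± 1.87 CPM (SD, n = 4) with replicate 1 and 0.258 ± 0.193 CPM (SD, n = 3) without it.

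Cd4, the coreceptor of helper T cells that subsets of dendritic cells also express, had its lowest level at 2dpr and a later rise at both ages. It measured 16.1, 8.56, 9.42 and 9.67 CPM at immature baseline and 26.0, 19.9, 18.2 and 19.5 CPM at mature baseline, and the ages did not overlap. At 2dpr it was 8.79, 1.58, 1.51 and 3.37 CPM in immature mice and 2.23, 1.13, 3.33 and 2.22 CPM in mature mice, the lowest stage at both ages. At 5dpr the values were 14.6, 12.8, 15.7 and 10.6 CPM in immature mice and 4.06, 8.27 and 6.61 CPM in mature mice, again with no overlap but with the order of the ages turned round. At 14dpr Cd4 reached 27.0, 23.1, 28.2 and 18.6 CPM in immature and 13.7, 12.5, 20.4 and 16.4 CPM in mature mice, which overlapped.

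Cd8a, the coreceptor of cytotoxic T cells, had its higher values at baseline and 0dpr. At 0dpr it measured 2.39, 5.79, 5.55 and 6.26 CPM in immature mice and 6.27, 1.5, 5.10 and 7.36 CPM in mature mice. The 2dpr libraries gave 11.2, 0.113, 0.586 and 1.05 CPM (immature) and 1.57, 0.346, 2.89 and 1.48 CPM (mature), and the single immature value of 11.2 CPM was the highest Cd8a value of all 39 libraries. At 14dpr the group means were 1.26 ± 0.671 CPM (SD, n = 4) for the immature and 1.39 ± 0.839 CPM (SD, n = 4) for the mature group.

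The granzymes and perforin had another course, and in immature mice all 3 had their lowest mean at 0dpr. Gzma, a granzyme of T and NK cells with trypsin-like specificity, measured 0.299, 2.47, 0.819 and 0.974 CPM at immature 0dpr and 0.627, 0, 0.222 and 1.81 CPM at mature 0dpr. In immature mice it stood at 2.38, 3.26, 4.29 and 4.17 CPM at 5dpr and at 4.26, 4.66, 1.84 and 4.99 CPM at 14dpr. In mature mice it was 0.949, 2.13 and 2.01 CPM at 5dpr and 0.241, 0.559, 0.223 and 0.623 CPM at 14dpr, which were 2, 5, 2 and 6 reads. All 4 immature values exceeded all mature ones at baseline, 2dpr, 5dpr and 14dpr, and the ages overlapped only at 0dpr.

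Gzmb, the granzyme that cleaves after aspartate and activates caspases, was under 1 CPM in 6 groups. Its highest group mean was 1.90 ± 0.349 CPM (SD, n = 4) at immature 5dpr and its lowest 0.291 ± 0.277 CPM (SD, n = 4) at mature 0dpr. At 2dpr its immature values were 0.105, 1.24, 2.26 and 1.39 CPM, so the library that was highest for Cd3e and Cd8a was the lowest for Gzmb. Prf1, which encodes perforin, ranged from 0 to 2.12 CPM over the 39 libraries. Its group means ran from 0.397 ± 0.304 CPM (SD, n = 4) at mature 2dpr to 1.68 ± 0.437 CPM (SD, n = 4) at immature 14dpr.

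Nkg7 and Klrk1 were measured in every library. Nkg7 was highest at baseline, at 15.8, 12.6, 12.5 and 18.9 CPM in immature mice and 17.9, 35.5, 40.2 and 14.5 CPM in mature mice. From 2dpr on, no library exceeded 8.72 CPM at either age. Klrk1, which encodes the activating receptor NKG2D of NK and cytotoxic T cells, varied least between groups, with means from 3.41 ± 1.99 CPM (SD, n = 4) at immature 0dpr to 9.05 ± 2.71 CPM (SD, n = 4) at immature 14dpr.

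The comparison of immature with mature mice at each stage addressed whether lymphocyte transcripts differ with skeletal age. None of the 9 members was called (adjusted p under 0.05 over all 21204 genes, edgeR's quasi-likelihood test) at baseline, 0dpr, 2dpr, 5dpr or 14dpr, where 0.585%, 0.726%, 0.627%, 0% and 0.00943% of all genes were called. At an unadjusted p under 0.05 the members numbered 1, 0, 2, 1 and 1 in the same order, beside 11.7%, 10.7%, 13.3%, 5.1% and 4.57% of all genes. DESeq2 called 0, 0, 0, 0 and 1 members, beside 1.59%, 1.63%, 2.02%, 0.156% and 0.151% of all genes. The median difference of the members was -0.36 (log2, immature minus mature) at baseline, -0.26 at 0dpr, 1.06 at 2dpr, 0.51 at 5dpr and 0.49 at 14dpr, whereas the median of all genes tested lay between -0.02 and 0.04. Without the 2 libraries that stand apart the members' median at 2dpr was 0.20, and 0 of 9 members were called there, where 0.208% of all genes were.

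Gzma at 14dpr was the largest difference between the ages. Its means were 3.94 ± 1.43 CPM (SD, n = 4) for the immature and 0.411 ± 0.209 CPM (SD, n = 4) for the mature group, and its log2 fold change was 3.21 (SE 0.677) with an adjusted p of 0.111, which missed the threshold. DESeq2 gave an adjusted p of 0.000259, and edgeR on the 14dpr libraries alone gave 0.0274. Over 7 alternatives the adjusted p ran from 0.000259 to 0.193, with 2 of them under 0.05, and with any single library left out it stayed between 0.0747 and 0.417. The log2 fold change stayed between 3.01 and 3.48 in all of these. The members whose age groups did not overlap were Gzma and Cd4 at baseline, Gzma alone at 2dpr, Gzma and Cd4 at 5dpr and Gzma alone at 14dpr. Over all genes the groups did not overlap for 9.05%, 4.98%, 10.2% and 5.49% at those stages, and for 3.73% at 0dpr, where every member overlapped. Cd4 at baseline was lower in immature mice (log2 fold change -0.94, SE 0.371, adjusted p 0.292) and was called only when the baseline libraries were fitted alone (adjusted p 0.0346).

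The steps between stages addressed how the lymphocyte transcripts moved through injury and repair at each age. From baseline to 0dpr the members fell or did not pass the test. Nkg7 fell in mature mice from 27.0 ± 12.7 to 8.76 ± 3.17 CPM (SD, n = 4 each; log2 fold change -1.63, SE 0.452, adjusted p 0.00831) and in immature mice from 14.9 ± 3.03 to 5.79 ± 4.82 CPM (SD, n = 4 each; log2 fold change -1.38, SE 0.459, adjusted p 0.0480). Klrk1 fell in mature mice (log2 fold change -1.14, SE 0.343, adjusted p 0.0140). So 1 of 9 members was called in immature and 2 of 9 in mature mice, where 10.6% and 22.5% of all genes were called. The immature Nkg7 call was lost when any library other than immature 0dpr replicate 2 was left out, with an adjusted p of up to 0.186, and the Klrk1 call was lost without mature 0dpr replicate 3 (adjusted p 0.0577).

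Some other genes of NK and cytotoxic cells also fell at this step. Of a list of 20 effectors and receptors, 9 were lower, 0 higher and 11 not called at 0dpr against baseline in immature mice, where 10.6% of all genes were called in either direction. In mature mice 7 were lower, 0 higher and 13 not called, where 22.5% of all genes were called. The median of the list was -1.38 (log2) in immature and -1.27 in mature mice, beside 0 and -0.02 over all genes. Among them were Ctsw, a cathepsin of cytotoxic cells, in immature mice (log2 fold change -2.34, SE 0.512, adjusted p 0.00431) and Klrc2, an NK receptor gene, in mature mice (log2 fold change -2.81, SE 0.617, adjusted p 0.00120). These examples were named after their values were seen. The 3 pan-leukocyte markers moved with this step, their summed level being 533 to 749 CPM at immature baseline and 167 to 534 CPM at immature 0dpr, with 564 to 1078 and 262 to 620 CPM in mature mice. The 10 skeletal muscle markers moved the other way, from 25972 to 55647 CPM at mature baseline to 60784 to 127430 CPM at mature 0dpr. All genes of both lists were measured and none was at 0 in any library. With the mean log2 muscle level as a covariate, the Nkg7 calls at both ages and the mature Klrk1 call were lost. Calls over all genes went from 2257 to 1083 in immature and from 4775 to 531 in mature mice. The mature muscle level did not overlap between baseline (11.1 to 12.2) and 0dpr (12.3 to 13.3), so muscle content and stage cannot be told apart there. The part of the pan-leukocyte list was not tested.

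From 0dpr to 2dpr 3 members fell in mature mice and none rose. Cd4 fell from 12.2 ± 5.68 to 2.23 ± 0.900 CPM (SD, n = 4 each; log2 fold change -2.46, SE 0.411, adjusted p 5.76e-06). Cd3d fell by 2.36 on the log2 scale (SE 0.697, adjusted p 0.00537), although the lowest 0dpr library, at 0.471 CPM, overlapped the 2dpr group. Nkg7 fell to 2.10 ± 1.43 CPM (SD, n = 4; log2 fold change -2.03, SE 0.483, adjusted p 0.000675). Cd3e (-1.84, SE 0.784, adjusted p 0.0513) and Cd8a (-1.70, SE 0.822, adjusted p 0.0886) did not pass the test. In all 3 of 9 members were called in mature mice, where 47.6% of all genes were, so the members' count was below the share of the background.

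In immature mice 2 of 9 members were called at this step, where 44% of all genes were. Cd4 fell (log2 fold change -1.0, SE 0.400, adjusted p 0.0401) and Klrk1 rose (0.84, SE 0.346, adjusted p 0.0469). Both calls were fragile. The Cd4 call was lost without immature 0dpr replicate 2 or without any of 2dpr replicates 2, 3 and 4, and the Klrk1 call was kept only without immature 0dpr replicate 2 or without immature 2dpr replicate 1.

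Leaving out immature 2dpr replicate 1 and mature 2dpr replicate 3 changed this picture in immature mice. In immature mice 6 of 9 members were then called, 4 lower and 2 higher, where 46.6% of all genes were called. Cd8a fell by 3.09 on the log2 scale (SE 0.821, adjusted p 0.00233), Cd3d by 2.47 (SE 0.654, adjusted p 0.00226), Cd3e by 2.01 (SE 0.738, adjusted p 0.0249) and Cd4 by 1.84 (SE 0.382, adjusted p 0.000164). Gzmb rose (2.11, SE 0.704, adjusted p 0.0139), as did Klrk1 (1.00, SE 0.342, adjusted p 0.0160). With all libraries Cd3e had instead been 0.21 higher (log2, SE 0.753, adjusted p 0.842), and without immature 2dpr replicate 1 alone it was -2.0, so this 1 library turned its direction.

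In mature mice 5 of 9 members were called without the same 2 libraries, all 5 lower, where 48.8% of all genes were called. Cd4 fell by 2.68 (SE 0.372, adjusted p 2.97e-07), Cd8a by 2.11 (SE 0.730, adjusted p 0.0163) and Cd3e by 1.5 (SE 0.623, adjusted p 0.0451). With 3 libraries in each 2dpr group, the Cd3d mean was 0.244 ± 0.224 CPM (SD, n = 3) for the immature group and 0.410 ± 0.290 CPM (SD, n = 3) for the mature group. No interaction of age with this step was called, with all libraries (smallest adjusted p 0.326, for Cd4) or without the 2 libraries (smallest adjusted p 0.703, for Nkg7), where 0.0613% and 0% of all genes were called.

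**Figure D2:**
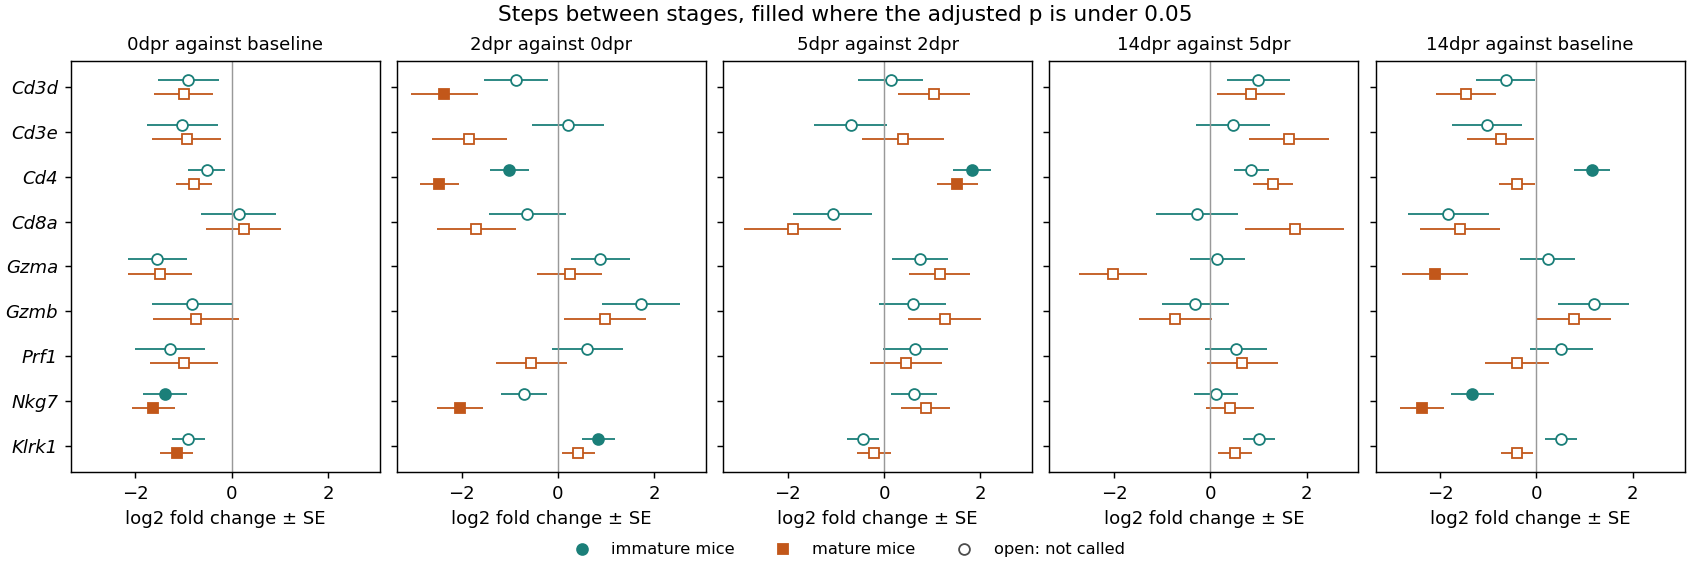
Log2 fold changes with their standard errors (horizontal axis) of the 9 genes (vertical axis) for 5 steps between stages. Circles are immature and squares mature mice, and filled symbols have an adjusted p under 0.05. Cd4 is filled at 2dpr against 0dpr (-1.0 and -2.46) and at 5dpr against 2dpr (1.82 and 1.52) at both ages, and no symbol is filled at 14dpr against 5dpr.

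Of 21 other genes of the T cell receptor and its signalling, 16 were lower and 2 higher at 2dpr than at 0dpr in mature mice, with a median of -2.0 (log2) beside -0.05 over all genes. In immature mice 1 was lower and 2 were higher, with a median of -0.26 beside -0.04. Of all genes, 47.6% were called in mature and 44% in immature mice. Without the 2 libraries that stand apart the counts were 18 lower and 2 higher in mature mice (median -1.69) and 8 lower and 2 higher in immature mice (median -1.05). In those fits 48.8% of all genes were called in mature and 46.6% in immature mice. These counts are not a test of age. For the interaction of age with this step, edgeR called 0 of the 21 genes with all libraries and 0 without the 2. The shares over all genes were 0.0613% and 0%. With all libraries, 12 of the 21 had an unadjusted interaction p under 0.05 (edgeR), beside 11.2% of all genes. DESeq2 called 2 of the 21 interactions, beside 0.533% of all genes. In mature mice Cd5, an inhibitory receptor of T cells, fell by 2.66 on the log2 scale (SE 0.534, adjusted p 9.03e-05), and Lck, the kinase that phosphorylates the CD3 chains, fell by 2.08 (SE 0.539, adjusted p 0.00167). With the 2 libraries left out, these fell by 2.33 (adjusted p 6.77e-05) and by 1.71 (adjusted p 0.000462). Both examples were named after their values were seen.

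Il7r, Tyrobp and Thy1 were among the listed genes that rose at 2dpr. Il7r, the receptor of interleukin-7, rose by 2.89 on the log2 scale in mature mice (SE 0.444, adjusted p 1.36e-06) and by 2.55 in immature mice (SE 0.436, adjusted p 9.95e-06). Tyrobp, an adaptor of activating receptors that macrophages share with NK cells, rose by 2.40 in mature (SE 0.286, adjusted p 1.12e-08) and 2.66 in immature mice (SE 0.289, adjusted p 2.36e-09). Thy1, a surface protein of T cells that fibroblasts also express, rose by 1.02 in immature mice (SE 0.202, adjusted p 8.67e-05). Without the 2 libraries the rise of Il7r was 3.07 in mature and 2.63 in immature mice, that of Tyrobp 2.60 and 2.65, and that of Thy1 in immature mice 1.07, each with an adjusted p of 4.22e-05 or lower. Of the list of 20 NK and cytotoxic effectors, 2 were higher and 6 lower in mature mice and 4 higher and 1 lower in immature mice, both counts being below the shares of 47.6% and 44% over all genes. With those libraries left out, 3 were higher and 7 lower in mature mice, and 4 were higher and 1 lower in immature mice. The shares over all genes were then 48.8% and 46.6%. Of 9 regulatory and gamma-delta T cell genes, 6 were tested, with 2 lower in mature and 1 lower in immature mice, beside 47.6% and 44% of all genes. Ikzf2, the transcription factor Helios, fell by 1.91 in mature mice (SE 0.169, adjusted p 1.64e-11) and by 1.75 in immature mice (SE 0.170, adjusted p 2.05e-10). Ctla4, an inhibitory receptor of activated and regulatory T cells, fell by 3.73 in mature mice (SE 0.738, adjusted p 7.01e-05). Ikzf2 fell, in the fit without these libraries, by 1.92 in mature and 1.75 in immature mice, and Ctla4 by 3.43 in mature mice (adjusted p 0.000254).

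**Figure D3:**
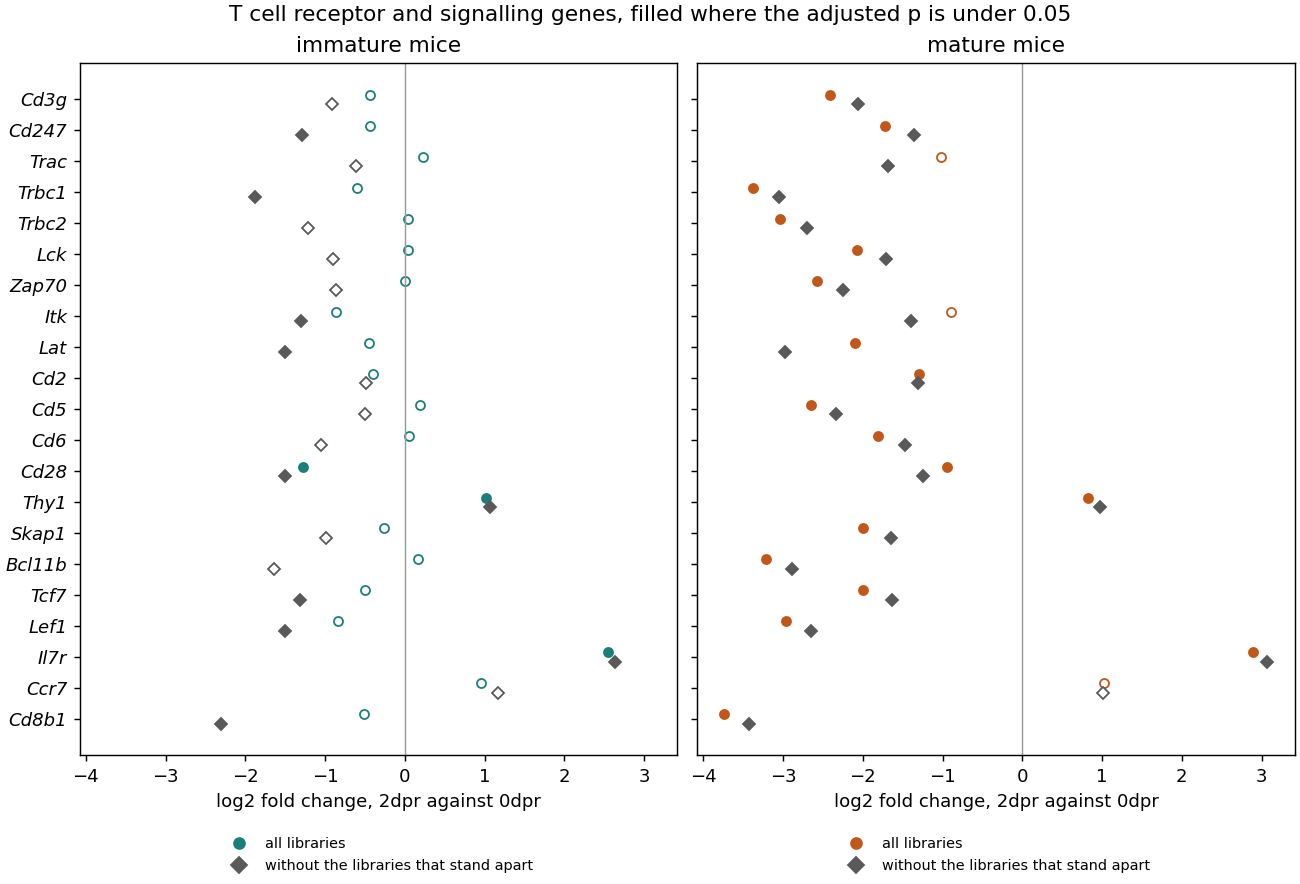
Log2 fold change at 2dpr against 0dpr (horizontal axis) of 21 T cell receptor and signalling genes (vertical axis) in immature (left) and mature mice (right). Coloured circles use all libraries, grey diamonds leave out immature 2dpr replicate 1 and mature 2dpr replicate 3, and filled symbols have an adjusted p under 0.05. In immature mice the diamonds lie left of the circles for most genes, and the number filled on the lower side goes from 1 to 8, against 16 to 18 in mature mice. Of all genes, 44% (immature) and 47.6% (mature) were called with all libraries, and 46.6% and 48.8% without the 2. For the interaction of age with this step, edgeR called 0 of the 21 genes in either fit.

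Markers of other cells moved with the step to 2dpr. The summed CPM of the 8 macrophage and monocyte markers, all 8 measured and none at 0 in any library, went from 1021 to 1777 at immature 0dpr to 6828 to 8381 at immature 2dpr, and from 1063 to 2188 to 6502 to 8128 in mature mice. Adgre1, which encodes a surface receptor of macrophages, averaged 67.3 ± 23.3 CPM at immature 0dpr and 441 ± 41.2 CPM at immature 2dpr (SD, n = 4 each). The 10 muscle markers summed to 60784 to 127430 CPM at mature 0dpr and 7734 to 16536 CPM at mature 2dpr, and Ckm, the muscle creatine kinase, averaged 8633 ± 2886 and 919 ± 600 CPM (SD, n = 4 each). Cd79a, a signalling chain of the B cell receptor, averaged 11.6 CPM at immature 0dpr and 2.70 CPM at immature 2dpr. CPM values are shares of a library, and the part of these shifts in the T cell result was not tested by separating the cells. With the mean log2 level of the muscle list as a covariate, 12 of the 14 calls of members over all steps were lost. Calls over all genes fell with it too. At 2dpr against 0dpr they went from 9324 to 1703 in immature and from 10100 to 1487 in mature mice. At mature 0dpr against baseline they went from 4775 to 531. The muscle level did not overlap between 0dpr (12.1 to 13.3) and 2dpr (9.16 to 10.2), so muscle content and stage cannot be told apart there.

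The library of immature mice with the high T cell values also had high levels of genes of developing lymphocytes. Rag1, part of the recombinase that assembles antigen receptor genes in T and B cell precursors, measured 37.0 CPM there and 1.01, 3.60 and 6.16 CPM in the other immature 2dpr libraries. Dntt, the polymerase that adds bases at receptor gene joints, measured 13 CPM against 1.01, 1.51 and 3.37 CPM. The 5 thymocyte markers (Ptcra, Rag1, Rag2, Dntt and Cd1d1) summed to 64.8 CPM in it, against 18.3 to 26.0 CPM in the other 3. Ptcra, the pre-T cell receptor chain, had 8 reads in it and was at 0 in 28 of 39 libraries. At immature 0dpr the thymocyte list summed to 65.9 to 93.1 CPM. The part of these genes in the values of the members in that library was not tested.

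From 2dpr to 5dpr only Cd4 was called among the members. It rose in immature mice from 3.81 ± 3.43 to 13.4 ± 2.24 CPM (SD, n = 4 each; log2 fold change 1.82, SE 0.396, adjusted p 0.00245) and in mature mice from 2.23 ± 0.900 (SD, n = 4) to 6.31 ± 2.12 CPM (SD, n = 3; log2 fold change 1.52, SE 0.427, adjusted p 0.0133). The groups did not overlap at either age, a description given without the share of all genes that did not overlap at this step. That is 1 of 9 members at each age, where 8.05% and 14.5% of all genes were called. The immature call held with any single library left out and under each of 8 other settings, the muscle covariate included. The mature call was lost without mature 5dpr replicate 3 (adjusted p 0.0840). Without the 2 libraries that stand apart, Cd4 was again the 1 member called at each age, where 9.56% of all genes were called in immature and 13.1% in mature mice.

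Between 5dpr and 14dpr none of the 9 members was called at either age by edgeR, where 3.18% of all genes were called in immature and 4.18% in mature mice. At an unadjusted p under 0.05 there were 2 members at each age, beside 14.0% of all genes in immature and 18.4% in mature mice. DESeq2 called 1 member in immature and 2 in mature mice, beside 4.85% and 6.56% of all genes. Gzma in mature mice went from 1.70 ± 0.651 (SD, n = 3) to 0.411 ± 0.209 CPM (SD, n = 4; log2 fold change -2.01, SE 0.706, adjusted p 0.101), with no overlap. In immature mice it was 3.52 ± 0.891 and 3.94 ± 1.43 CPM (SD, n = 4 each; log2 fold change 0.15, SE 0.564, adjusted p 0.968). The interaction of age with this step for Gzma was 2.16 (log2, SE 0.904, adjusted p 1), so a difference between the ages was not shown. Klrk1 in immature mice (1.01, SE 0.337, adjusted p 0.0995), Cd4 in immature mice (0.85, SE 0.368, adjusted p 0.259) and Cd4 in mature mice (1.31, SE 0.414, adjusted p 0.0648) also missed the threshold with groups that did not overlap. The share of all genes without overlap was not computed for steps between stages, so the lack of overlap is a description and adds no support to these changes. Over the 4 interactions of age with a step, edgeR and DESeq2 each called 0 of 9 members. In the order from baseline to 0dpr, to 2dpr, to 5dpr and to 14dpr, edgeR called 0.0141%, 0.0613%, 0% and 0% of all genes at an adjusted p under 0.05. At an unadjusted p under 0.05 it had 0, 1, 0 and 1 members, beside 8.07%, 11.2%, 8.09% and 4.25% of all genes.

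Set against baseline, the callus at 14dpr had less Nkg7 at both ages. Nkg7 was lower in mature mice (5.19 ± 0.717 against 27.0 ± 12.7 CPM, SD, n = 4 each; log2 fold change -2.38, SE 0.47, adjusted p 0.000111) and in immature mice (5.92 ± 2.06 against 14.9 ± 3.03 CPM, SD, n = 4 each; log2 fold change -1.33, SE 0.455, adjusted p 0.0231). Cd4 was higher in immature mice (24.2 ± 4.35 against 10.9 ± 3.48 CPM, SD, n = 4 each; log2 fold change 1.15, SE 0.372, adjusted p 0.0164), and in mature mice the log2 fold change was -0.41 (SE 0.366, adjusted p 0.439). Whether that change differed between ages from baseline to 14dpr was not tested. Cd3d and Cd3e did not rise with Cd4 in immature mice. Their log2 fold changes at 14dpr against baseline were -0.64 and -1.03 (edgeR, adjusted p 0.474 and 0.306). The cell type behind the Cd4 change was not tested. Gzma was lower in mature mice (log2 fold change -2.11, SE 0.682, adjusted p 0.0149), with 0.23 in immature mice (SE 0.567, adjusted p 0.806). That is 2 of 9 members at each age, where 31.4% and 33.5% of all genes were called. Of the 21 T cell receptor and signalling genes, 1 was higher and 2 lower at 14dpr than at baseline in immature mice (median -0.41) and 2 were higher and 2 lower in mature mice (median -0.85).

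Of these 4 calls at 14dpr, Nkg7 in mature mice held with every library left out in turn. Gzma in mature mice was lost without mature 14dpr replicate 3 (adjusted p 0.050). Cd4 in immature mice was lost without immature baseline replicate 3 (adjusted p 0.0541). Nkg7 in immature mice was lost without immature baseline replicate 6 or without immature 14dpr replicate 1, 3 or 4 (adjusted p up to 0.0800). Of the 14 calls of members over all steps, 6 held with every library left out in turn and 8 did not.

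Among the lists, a single gene was called between the ages, at 0dpr, where 0.726% of all genes were called. Ccl5, a chemokine made by activated T and NK cells, had less message in the immature than in the mature group at 0dpr, at 1.01 ± 0.889 against 4.11 ± 0.694 CPM (SD, n = 4 each; log2 fold change -2.02, SE 0.415, adjusted p 0.00856). The immature libraries measured 0.299, 2.10, 0.273 and 1.39 CPM and the mature ones 3.76, 3.87, 3.66 and 5.14 CPM, so the groups did not overlap. The same held for 3.73% of all genes at 0dpr. The call was kept under 6 of 7 other settings, the replicate block among them (log2 fold change -2.09, adjusted p 0.00310). It was lost when the 0dpr libraries were fitted alone by edgeR (-2.01, unadjusted p 0.00631, adjusted p 0.522), where 0 of 21204 genes were called. With each 0dpr library left out in turn the adjusted p ran from 0.000814 to 0.0622, over the threshold only without immature 0dpr replicate 1. At 2dpr none of the genes in the 3 lists was called between the ages by edgeR, with 12 of the 21 T cell receptor and signalling genes at an unadjusted p under 0.05, beside 13.3% of all genes. DESeq2 called 8 of the 21, beside 2.02% of all genes. Both counts used all libraries. Without the 2 libraries that stand apart, edgeR called 0 of the 21, where 0.208% of all genes were called. Only Lef1 was then at an unadjusted p under 0.05 (edgeR, p 0.0423), and DESeq2 was not run without them. Those 21 genes had a median of 1.26 (log2, immature minus mature) at 2dpr with all libraries and 0.56 without the 2 that stand apart, beside 0.04 over all genes with all libraries.

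The ratio of Cd4 to Cd8a was taken within each library, on log2 CPM with a prior count of 2, which shrinks the ratio where Cd8a is low. Its mean on the log2 scale was 1.39 ± 0.650 (SD, n = 4) for the immature and 2.29 ± 0.49 (SD, n = 4) for the mature group at baseline, 0.56 ± 0.507 and 1.32 ± 1.27 at 0dpr, and 1.21 ± 1.19 and 0.62 ± 0.469 at 2dpr. It was higher later, at 3.70 ± 1.39 (SD, n = 4) and 3.64 ± 0.941 (SD, n = 3) at 5dpr and 4.17 ± 0.928 and 3.47 ± 0.576 (SD, n = 4 each) at 14dpr. No difference between ages passed an exact two-sided permutation test, the smallest p being 0.0857 at baseline (0.429 after adjustment over 5 stages), where 4 against 4 libraries cannot go below 0.0286. The rise between stages was not tested as a ratio. Subsets of dendritic cells also express both genes, so the ratio does not measure T cells alone. Cd8a was at 10 reads or fewer in 13 of 39 libraries, which limits the precision of the ratio there.

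Cd3e relative to Ptprc addressed whether T cell transcripts fell as a share of all leukocyte transcripts. Between 0dpr and 2dpr Ptprc went from 136 ± 61.9 to 432 ± 81.2 CPM in immature and from 165 ± 59.7 to 543 ± 89.4 CPM in mature mice (SD, n = 4 each). The log2 ratio of Cd3e to Ptprc was 3.51 lower at 2dpr in mature mice, and the 4 libraries of the 2 stages did not overlap (exact two-sided permutation test, p = 0.0286, the smallest that 4 against 4 libraries allow, 0.200 after adjustment over 7 comparisons). In immature mice it was 2.33 lower (exact permutation test, p = 0.114), with -6.28 in replicate 1 and -9.34 to -10.9 in the other 3 libraries. Mature 2dpr replicate 3 held no read of Cd3e, so its ratio of -11.7 was set by the prior count. Without that library the mature log2 difference was -3.06. Without immature 2dpr replicate 1 the immature log2 difference was -3.28. None of the 5 differences between ages passed, the smallest p being 0.400 by the same exact test.

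**Figure D4:**
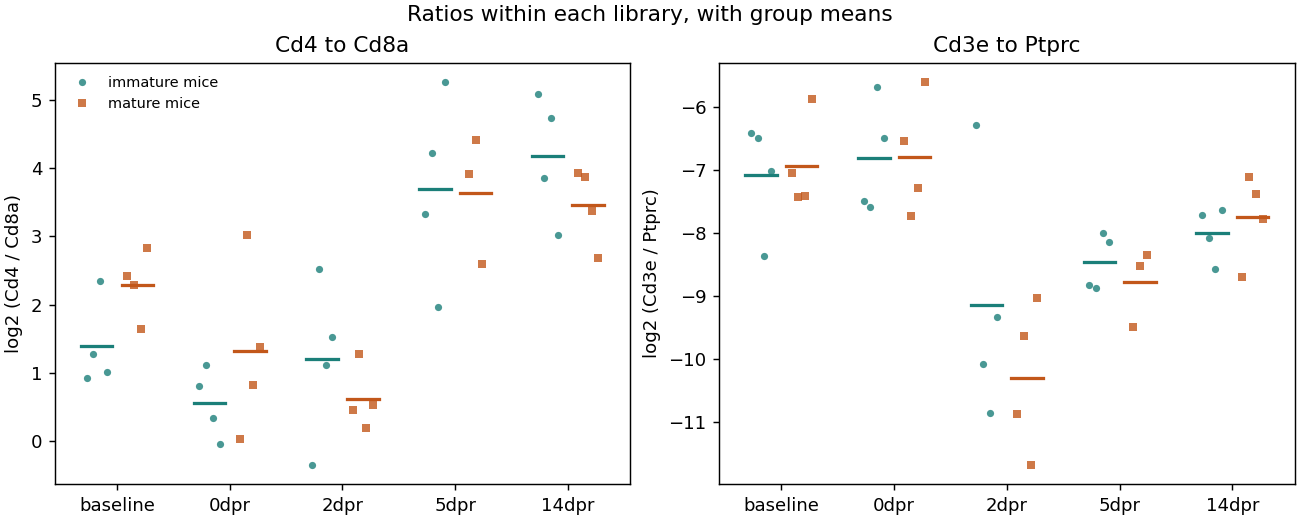
Log2 ratio of Cd4 to Cd8a (left) and of Cd3e to Ptprc (right) in each library (vertical axes, no unit) by stage (horizontal axis). Circles are immature and squares mature libraries, and bars are group means. Mean Cd4 to Cd8a ratios are 0.56 to 2.29 from baseline to 2dpr and 3.47 to 4.17 at 5dpr and 14dpr, and the mean Cd3e to Ptprc ratio is lowest at mature 2dpr (-10.3). The mature 2dpr group includes replicate 3 (-11.7), which held no read of Cd3e.

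Across the 39 libraries the members did not vary as a single block. The highest Pearson correlation of log2 CPM among the 36 pairs was 0.79, for Cd3d with Cd3e. Among the 6 pairs of T cell receptor and coreceptor genes it ran from 0.32 to 0.79, among the 10 pairs of cytotoxic genes from -0.0004 to 0.67, and among the 20 pairs across from -0.48 (Cd8a with Gzmb) to 0.67 (Cd3d with Nkg7). Klrk1 was closest to Prf1 (0.67) and Nkg7 to Cd3d. On deviations from the group means, Nkg7 with Cd3d was 0.17, and Nkg7 was instead closest to Klrk1 (0.57). Klrk1 stayed closest to Prf1 (0.61). These describe 39 libraries that share stage, age and tissue composition, and low counts weaken them.

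Among 16084 other genes with a mean of at least 1 CPM, the 5 most like Cd3e over the 39 libraries were Sla2 (Pearson r of log2 CPM 0.80), Zap70 (0.79), Trbc1 (0.79), Trbc2 (0.78) and Skap1 (0.75). Zap70 is the kinase that binds the phosphorylated CD3 chains, and Trbc1 and Trbc2 are the constant regions of the T cell receptor beta chain. The 5 most like Nkg7 were Samd14, Ift140, Ms4a2, Acmsd and Slc14a1, with r from 0.88 to 0.89. Slc14a1 encodes the urea transporter of red blood cells, and Ms4a2 a chain of the IgE receptor of mast cells and basophils. The 4 erythroid markers, all 4 measured and none at 0, summed to 9918 to 18627 CPM at baseline, 2979 to 20528 CPM at 0dpr and 393 to 4916 CPM at 14dpr. Their part in the Nkg7 result was not tested.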

How the data were processed

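Bulk RNA was sequenced from rib tissue of immature and mature mice, with a column for 39 libraries. The authors aligned the reads to GRCm38 and made gene counts with STAR 2.5.2a (version from the submitters' processing notes). Deposited were raw counts of 48733 genes, the same counts for 21204 genes after a low-count filter whose rule was not given in the sources used here, and CPM scaled by TMM factors (a signal rather than counts). The annotation release of the counting is not given in the sources used here. Gene positions and exon lengths come from GENCODE vM21 and promoters from RefSeq.

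CPM were used as deposited. The filtered counts were tested with edgeR 4.0.16 (TMM, quasi-likelihood, 1 coefficient for each of 10 groups, R 4.3.3), with Benjamini-Hochberg adjustment over 21204 genes at a threshold of 0.05. The study used DESeq2, run here in version 1.42.0 as an alternative. Ratios within a library used log2 CPM with a prior count of 2 and exact two-sided permutation tests. Libraries held 6057756 to 21537070 counts, and replicate columns all differed by more than counting noise. Scripts were tested on simulated counts.

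The members and gene lists were chosen with earlier results of these data known. All members were named, with the 4 genes of smallest adjusted p from the other lists at 2dpr against 0dpr at each age, every listed gene called between ages, the 5 genes most correlated with Cd3e and with Nkg7, and Ptprc, Adgre1, Cd79a and Ckm as markers of other cells. Neighbouring steps share libraries and are not independent. Same-numbered libraries deviated together, with every pair over 0.1, only between the ages at 0dpr (4 pairs, correlation 0.109 to 0.207), although no label says that numbers mark a shared litter or day. The alternatives were RLE factors, filterByExpr, no filter, the replicate number as a block, muscle marker level as a covariate, the compared libraries alone, each library left out, DESeq2 and, after the data were seen, leaving out 2 libraries. A marker gene and the summed level that used it are not reported here.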

Additional observations from a re-analysis of the deposited data

Results flagged for a closer look

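Of 99 groups of 4 values examined, 7 held a library far from the other 3 by Dixon's test, where chance gives about 1 group in 20. Immature 2dpr replicate 1 was far above the rest of its group for 3 members, with 2.51 CPM of Cd3d (next highest 0.503), 3.98 CPM of Cd3e (next highest 0.465) and 11.2 CPM of Cd8a (next highest 1.05). At immature baseline, replicate 2 was high for Cd4, at 16.1 CPM (next highest 9.67), and replicate 4 was low for Cd3d, at 2.04 CPM (next lowest 2.99). Immature 2dpr replicate 3 was high for Gzma, at 3.52 CPM (next highest 1.74), and mature baseline replicate 1 was high for Gzmb, at 1.15 CPM (next highest 0.335).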

How the results depend on the processing

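Of 2871 member values under alternatives, 2782 kept their side of the threshold, 36 became significant and 51, all from the 14 calls, lost significance. Most of the 2782 had no call in either fit, and some turned direction. Between the ages at 2dpr, leaving out the 2 libraries took Cd3d from 1.22 to -0.70 (log2, immature minus mature). It took Cd3e from 1.59 to -0.96 and Cd8a from 1.06 to -0.98, none of them called, while the other members stayed positive. A further 2 values turned direction with a call, both being Cd3e in immature mice at 2dpr against 0dpr (0.21 with all libraries, -2.01 without the 2 libraries that stand apart, and -2.0 to 0.62 with each library left out in turn, the lowest without immature 2dpr replicate 1). At that step the number of members called in immature mice, 2, became 1 with RLE factors, 1 with filterByExpr, 0 without a filter, 1 with the replicate block, 0 with the muscle covariate, 0 with the compared libraries alone, 6 without the 2 libraries and 1 with DESeq2. In mature mice it was 3 and became 0 with the muscle covariate and 5 without the 2 libraries. Over all genes the muscle covariate took the calls from 9324 to 1703 in immature and from 10100 to 1487 in mature mice. Without the 2 libraries they were 9889 and 10352. In immature mice they were 9379 with RLE factors, 9178 with the replicate block, 7832 with the compared libraries alone and 9798 with DESeq2. There they were 9161 of 18322 genes with filterByExpr and 8705 of 35481 genes without a filter. From baseline to 0dpr the 1 call in immature mice became 0 with the replicate block, the muscle covariate or the compared libraries alone and 2 with DESeq2, and the 2 calls in mature mice became 0 with the muscle covariate. In immature mice the 2257 calls over all genes became 802, 1083, 48 and 3199 under these 4 settings in the same order. The muscle covariate took the 4775 calls over all genes in mature mice to 531. From 2dpr to 5dpr the 1 call in mature mice became 0 with the muscle covariate or the compared libraries alone, where the 3084 calls over all genes became 1746 and 714. From 5dpr to 14dpr 0 calls became 2 with the compared libraries alone and 1 with DESeq2 in immature mice, and 1 with filterByExpr, 2 with the compared libraries alone and 2 with DESeq2 in mature mice. At 14dpr against baseline the 2 calls in immature mice became 0 with the replicate block or the muscle covariate, and the 2 in mature mice became 1 with the muscle covariate and 4 with the compared libraries alone. Between ages, 0 calls became 1 at baseline with the compared libraries alone (Cd4) and 1 at 14dpr with the compared libraries alone or DESeq2 (Gzma). Over all genes the 124 calls at baseline became 471, and the 2 at 14dpr became 5 and 32. The causes were not tested.

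Among the other T and NK cell genes, the 9 called at 2dpr against 0dpr in immature mice became 16 without the 2 libraries. With DESeq2 the calls between ages went from 1 to 2 at 0dpr, 0 to 8 at 2dpr and 0 to 1 at 5dpr, those from 2dpr to 5dpr in immature mice from 2 to 1, those from 5dpr to 14dpr from 0 to 5 in immature and 0 to 6 in mature mice, and the interaction of age with 2dpr against 0dpr from 0 to 3.

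With each library left out in turn, 0 members were called between ages at every stage and in every interaction. The number called was 0 to 3 in immature and 1 to 4 in mature mice from baseline to 0dpr, 0 to 6 and 3 to 4 from 0dpr to 2dpr, 1 to 1 and 0 to 1 from 2dpr to 5dpr, 0 to 0 at both ages from 5dpr to 14dpr, and 1 to 2 at both ages at 14dpr against baseline. The highest counts came without immature 0dpr replicate 2 (3), mature 0dpr replicate 4 (4) and immature 2dpr replicate 1 (6). The age difference of the Cd4 to Cd8a ratio at 5dpr (0.06) ran from -0.47 to 0.63, and was -0.16 with a prior count of 0.5. That of the Cd3e to Ptprc ratio ran from -0.35 to 0.30 at baseline, from -0.40 to 0.37 at 0dpr (0.030 with a prior count of 5) and from -0.0290 to 0.54 at 5dpr, so each of these differences took both signs. The other age differences kept their sign. For Cd4 to Cd8a, -0.90 at baseline ran from -1.22 to -0.72, -0.76 at 0dpr from -1.18 to -0.19 (nearest 0 without mature 0dpr replicate 2), 0.59 at 2dpr from 0.15 (without immature 2dpr replicate 2) to 1.11 (without immature 2dpr replicate 1) and 0.71 at 14dpr from 0.40 (without immature 14dpr replicate 1) to 1.09 (without immature 14dpr replicate 4). For Cd3e to Ptprc, 1.16 at 2dpr ran from 0.21 (without immature 2dpr replicate 1) to 1.74 and -0.26 at 14dpr from -0.58 to -0.05.

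The replicate block kept 10 of the 14 calls over all steps and added none between ages at 0dpr, where 0 of 9 members were called with it. For the other comparisons the libraries shared only a number, with correlations of same-numbered libraries from -0.158 to 0.102. Depth limits Gzmb and Prf1, which had 10 reads or fewer in 24 of 39 libraries each, so differences in them may not have been detectable.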
